A study of Mus musculus with 6 samples.

Results

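Myf5, Myf6, Myod1 and Myog encode the myogenic regulatory factors, and all 4 were found by symbol among the 35976 genes quantified in each of 6 RNA-seq libraries and among the 17348 genes tested. The libraries came from satellite cells (SCs), the stem cells of skeletal muscle, of 2 genotypes, NF-YA cKO with 3 samples and NF-YA fl/fl with 3. Both genotypes carry floxed alleles of Nfya and were injected with tamoxifen, at 5 to 7 weeks of age by the sample labels and 6 to 8 weeks by the study's methods. NF-YA cKO mice also carry Pax7-CreERT2, a tamoxifen-inducible recombinase expressed from the SC gene Pax7, so that deletion is limited to cells in which Pax7 was active, while NF-YA fl/fl mice carry no Cre and are the controls. SCs were enriched from hindlimb muscle by removing cells that bear surface markers of blood, endothelial and stromal cells, and were kept for 4 days in growth medium before RNA extraction. The labels number the replicates without saying whether each is a separate animal, so the p-values measure the spread between these libraries, which may be partly technical.

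The myogenic regulatory factors are basic helix-loop-helix (bHLH) transcription factors that bind the E box, CANNTG, as dimers with the widely expressed E proteins. Myf5 and Myod1 act as determination factors and mark activated and dividing SCs, Myog is switched on when myoblasts leave the cell cycle and differentiate, and Myf6, also named Mrf4, is best known from differentiated fibers. NF-YA is the subunit of the trimeric factor NF-Y that gives it sequence-specific binding to the CCAAT box, and the comparison asks how SC cultures differ after deletion of Nfya was induced.

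The 4 genes are small, with 3 exons each, and no other annotated gene overlaps them. In GRCm38 (mm10), Myog lies on chromosome 1 (134289989 to 134292548, plus strand), Myod1 on chromosome 7 (46376474 to 46379099, plus strand), and Myf5 (107482908 to 107486134) and Myf6 (107492853 to 107494737) lie on the minus strand of chromosome 10, separated by 6718 bp. They are paralogs, and a stretch of coding sequence that they share is shown here because it bears on how far reads can be told apart between them. It is a window of 90 bases in the bHLH part of exon 1 of each gene, from the GENCODE transcripts, with the 59 positions that are identical in all 4 genes in capitals. The windows lie at chr10:107485539-107485628 (minus strand) in Myf5, chr10:107494282-107494371 (minus strand) in Myf6, chr7:46377054-46377143 (plus strand) in Myod1 and chr1:134290353-134290442 (plus strand) in Myog.
Myf5: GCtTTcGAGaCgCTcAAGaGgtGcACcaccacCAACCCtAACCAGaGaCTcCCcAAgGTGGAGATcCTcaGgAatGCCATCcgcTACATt
Myf6: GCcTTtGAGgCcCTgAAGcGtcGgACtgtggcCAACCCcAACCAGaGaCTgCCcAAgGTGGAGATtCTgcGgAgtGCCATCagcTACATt
Myod1: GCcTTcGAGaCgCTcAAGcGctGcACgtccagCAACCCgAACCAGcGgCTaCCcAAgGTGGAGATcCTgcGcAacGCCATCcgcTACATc
Myog: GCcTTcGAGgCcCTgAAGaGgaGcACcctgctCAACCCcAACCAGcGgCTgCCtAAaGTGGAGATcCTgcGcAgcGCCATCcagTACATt
Between pairs, 67 to 75 of the 90 bases were identical, with the most between Myf5 and Myod1. The longest run of bases shared exactly by any pair of whole transcripts was 26 nt, between Myf5 and Myod1, which is shorter than a read of 75 nt. The deposited gene counts of all 4 factors were whole numbers in every library. Within Myf5, reads were split between the curated transcript and a predicted one, and the predicted one held 0.46% to 2.71% of the gene's TPM.

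Library totals were 31040863 to 41118984 expected counts in NF-YA cKO and 26936230 to 33316730 in NF-YA fl/fl. The transcript of the deleted Nfya allele made up 22.3% to 34.2% of Nfya counts in NF-YA cKO and 0% in all 3 NF-YA fl/fl libraries, where a count of 0 allows up to 0.276% to 0.489% (counting error only). The other Nfya transcripts were still at 21, 21 and 17.8 CPM in NF-YA cKO replicates 1, 2 and 3, and at 23.4, 25.7 and 36.9 CPM in the controls. The SC markers Pax7 (171 CPM in NF-YA cKO against 88.7 CPM in the controls on average), Itga7 (266 against 631 CPM) and Sdc3 (195 against 166 CPM) were present in both genotypes. Calcr and Chrdl2 were under the filter. Directions were mixed, and 4 of the 10 tested SC and myoblast markers had a log2 fold change above 0. The genotypes also parted by sex-linked transcripts: Xist averaged 843 CPM in NF-YA cKO against 0.389 CPM in the controls, and the Y-linked Ddx3y averaged 0.0636 and 84.9 CPM, with Kdm5d (0.0106 and 39.1 CPM) and Uty (0.0498 and 44.0 CPM) likewise, although the study's methods describe male mice. In every comparison given here, sex-linked transcripts and genotype move together and cannot be told apart. NF-YA fl/fl replicate 3 stood apart from its group: over the 500 genes that differed most between a pair of libraries, the root mean square log2 difference was 2.11 and 2.5 to the other NF-YA fl/fl libraries, against 1.26 between those and 0.921 to 1.07 among NF-YA cKO libraries. Each result that rests on this library is given with and without it.

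Levels of the 4 factors were compared first in TPM, which is scaled to transcript length and so allows genes to be set beside each other. The order of the factors differed between the genotypes and was the same in all 3 libraries of each. In NF-YA fl/fl it was Myog, Myod1, Myf5 and Myf6 from high to low, and in NF-YA cKO it was Myod1, Myf5, Myog and Myf6. In NF-YA fl/fl the ranges of Myog and Myod1 overlapped across libraries, as did those of Myf5 and Myog in NF-YA cKO, but within each library the order held. By rank among all genes of a library, Myog was between place 91 and place 171 in NF-YA fl/fl and between place 3252 and place 7094 in NF-YA cKO, while Myod1 was between place 149 and place 347 in all 6 libraries.

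**Figure D1:**
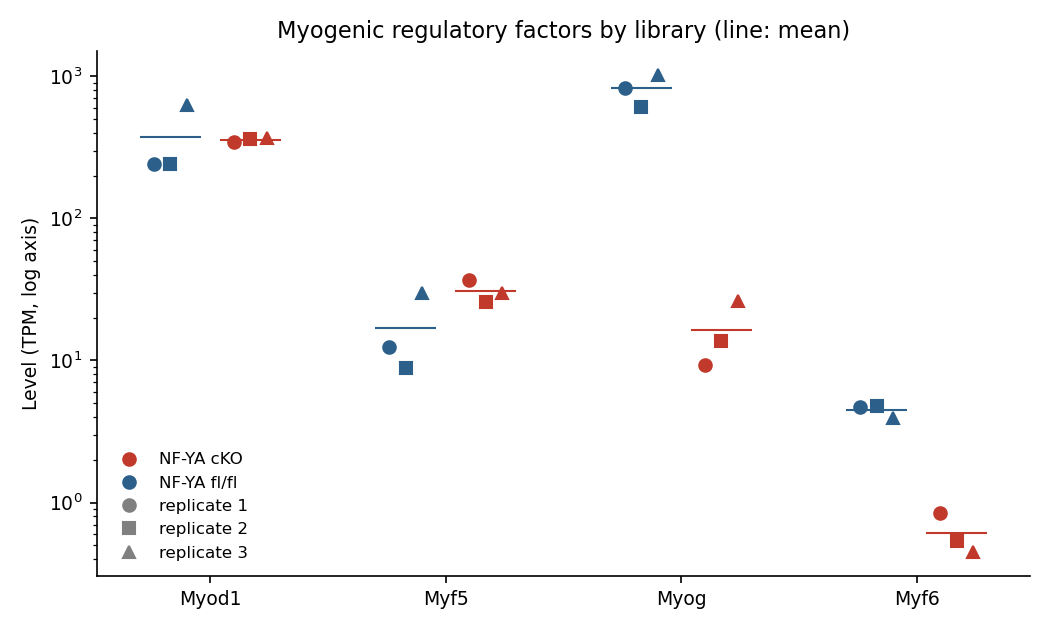
TPM of each factor (log axis) in the 3 NF-YA fl/fl and 3 NF-YA cKO libraries, with the replicate as the symbol and the group mean as a line. Myog and Myf6 separate the genotypes, with 9.30 to 26.3 against 609.7 to 1026 TPM for Myog, while the NF-YA cKO values of Myod1 lie between the NF-YA fl/fl replicates and those of Myf5 overlap them.

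Calls between genotypes required an FDR under 0.01 together with a log2 fold change larger than 1 in size. By this rule 2 of the 4 factors, Myog and Myf6, were called lower in NF-YA cKO, against 7.67% of all tested genes, and none was called higher, against 4.65%. At an unadjusted p under 0.05 none was higher in edgeR, and DESeq2 called none higher. For Myog and Myf6 all NF-YA cKO libraries were below all NF-YA fl/fl libraries, as in 26.2% of tested genes. No factor had all NF-YA cKO libraries above, as 29.1% of tested genes did. In these bulk libraries, fewer cells that express a factor and less of its RNA per cell cannot be told apart.

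Myog, the differentiation factor, had the largest change among the factors. Its TPM was 9.30, 13.8 and 26.3 in NF-YA cKO replicates 1, 2 and 3, and 825, 609.7 and 1026 in NF-YA fl/fl replicates 1, 2 and 3. Every NF-YA cKO library was far below every NF-YA fl/fl library. In counts relative to library size the means were 20.3 ± 10.4 CPM in NF-YA cKO against 999.5 ± 434 CPM in the controls (SD, n = 3 each). Myog therefore fell by 5.62 on the log2 scale (standard error 0.54, 95% confidence interval -6.90 to -4.34, edgeR FDR = 0.000683), a level 49.2-fold lower with an interval of 20.3-fold to 119.5-fold. By fold change it ranked 159th from the lowest of 17348 tested genes. NF-YA cKO libraries still held 336, 774 and 1337 Myog counts, and they differed among themselves, with the highest TPM 2.82-fold above the lowest against 1.68-fold in NF-YA fl/fl. In CPM the genotypes differed less in spread, with coefficients of variation of 51.5% in NF-YA cKO and 43.5% in NF-YA fl/fl.

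Myf6, the factor of differentiated fibers, was the least abundant and fell as well. TPM was 0.84, 0.54 and 0.45 in NF-YA cKO and 4.70, 4.8 and 3.96 in NF-YA fl/fl, without overlap. The counts behind these values were 25, 25 and 19 in NF-YA cKO and 118, 127 and 136 in NF-YA fl/fl. Exact 95% Poisson intervals, which cover counting error only, ended at 36.9 or lower in NF-YA cKO and began at 97.7 or higher in NF-YA fl/fl, at library sizes that were larger in 2 of the 3 NF-YA cKO libraries than in any NF-YA fl/fl library. The log2 fold change was -2.81 (standard error 0.27, 95% confidence interval -3.46 to -2.16, edgeR FDR = 0.000704), a 7.01-fold lower level. Myf6 varied less among NF-YA fl/fl libraries than the other factors, with a coefficient of variation of 10.2% in TPM.

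Myod1, the determination factor with the highest level in NF-YA cKO, varied little there, with a coefficient of variation of 3.39% in TPM and 10.4% in CPM. Its TPM was 344, 359.7 and 367 in NF-YA cKO, and 240.1, 239.6 and 632 in NF-YA fl/fl. Replicates 1 and 2 of NF-YA fl/fl were below all NF-YA cKO libraries, and replicate 3 was above all of them. The log2 fold change was -0.08 with a 95% confidence interval of -1.25 to 1.08 (edgeR FDR = 0.908), wide enough to hold a change past the threshold in either direction. Without NF-YA fl/fl replicate 3 the sign turned, with a log2 fold change of 0.78 (edgeR FDR = 0.00305) that stayed under the required size of 1. The study reports MyoD as downregulated in NF-YA cKO myoblasts by RT-qPCR, while Myod1 was not called here with or without that library.

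Myf5, the other determination factor, had the same split among the controls. TPM was 37.0, 25.6 and 29.6 in NF-YA cKO, and 12.3, 8.88 and 29.9 in NF-YA fl/fl. NF-YA fl/fl replicate 3 lay within the NF-YA cKO range, and the other controls were below it. The log2 fold change was 0.80 (standard error 0.53, 95% confidence interval -0.46 to 2.05, edgeR FDR = 0.272) and did not pass. Leaving out NF-YA fl/fl replicate 3, it was 1.71 (edgeR FDR = 0.00145) and was called higher, so whether Myf5 differs between the genotypes rests on that library. NF-YA cKO libraries had 1964 to 2213 Myf5 counts and NF-YA fl/fl libraries 422 to 1817, so that counting error was small beside the spread between libraries.

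**Figure D2:**
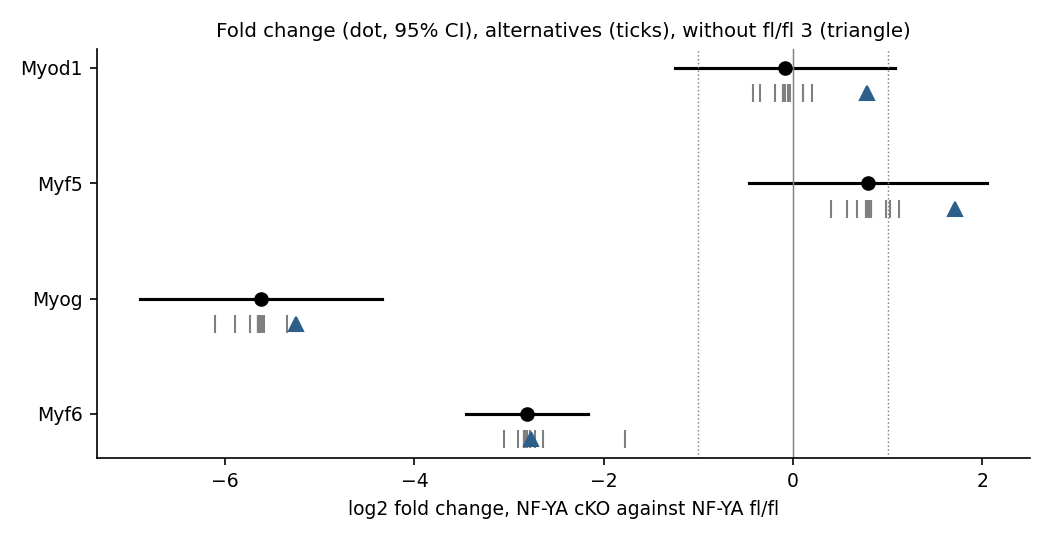
Log2 fold change of each factor, NF-YA cKO against NF-YA fl/fl, with its 95% confidence interval (dot and line), the other processing alternatives (grey ticks) and the value without NF-YA fl/fl replicate 3 (blue triangle). Dotted lines mark the size of 1 that a call requires. Myog and Myf6 stay beyond it under every alternative drawn, Myod1 lies on both sides of 0, and Myf5 moves from 0.80 to 1.71 without that library.

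The ratio between factors within a library does not depend on how libraries are scaled. For all 6 pairs the ratios in NF-YA cKO libraries did not overlap those in the controls. The pairs share genes, so they are not independent results. Every pair but Myod1/Myf5 holds Myog or Myf6, whose own levels did not overlap between the genotypes. Among tested genes taken singly, all NF-YA cKO libraries were above all controls (CPM) in 29.1% and below them in 26.2%. The share of other gene pairs without overlap was not computed. An exact permutation test of 3 against 3 libraries (two-sided) cannot give a p under 0.1, and it gave 0.1 for each pair, also 0.1 after Benjamini-Hochberg adjustment over the 6 pairs, so none can pass 0.05. The sizes are therefore given as descriptions with their spread.

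Myog was 3.44, 2.54 and 1.62 times the level of Myod1 in NF-YA fl/fl replicates 1, 2 and 3, and 0.0271, 0.0383 and 0.0715 times in NF-YA cKO. The mean log2 ratio of Myog to Myod1 was 1.28 ± 0.54 in NF-YA fl/fl and -4.56 ± 0.71 in NF-YA cKO (SD), a difference of -5.84. The difference was larger against Myf5, where Myog was 34.3 to 68.7 times Myf5 in NF-YA fl/fl and 0.251 to 0.887 times in NF-YA cKO, a difference in mean log2 ratio of -6.76.

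The ratio of Myod1 to Myf5, the determination factors, parted the genotypes although neither gene's own level did. Myod1 was 19.5, 27.0 and 21.1 times the level of Myf5 in NF-YA fl/fl replicates 1, 2 and 3, and 9.29, 14.0 and 12.4 times in NF-YA cKO. NF-YA fl/fl replicate 3, which was the highest control in both genes, was between its group's other libraries in this ratio. The difference in mean log2 ratio was -0.92 with all libraries and -0.96 without that replicate.

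Myf6, like Myog, was lower in NF-YA cKO, and the ratio between them differed as well. The log2 ratio of Myog to Myf6 was 7.46 ± 0.51 in NF-YA fl/fl and 4.45 ± 1.13 in NF-YA cKO, a difference of -3.01, or -3.87 with 1 TPM added in place of 0.1. The ratio of Myf6 to its neighbour Myf5 was 0.381, 0.540 and 0.132 in NF-YA fl/fl and 0.0227, 0.0211 and 0.0152 in NF-YA cKO. At this locus the genes separated by 6718 bp had log2 fold changes of -2.81 (Myf6, called) and 0.80 (Myf5, not called).

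**Figure D3:**
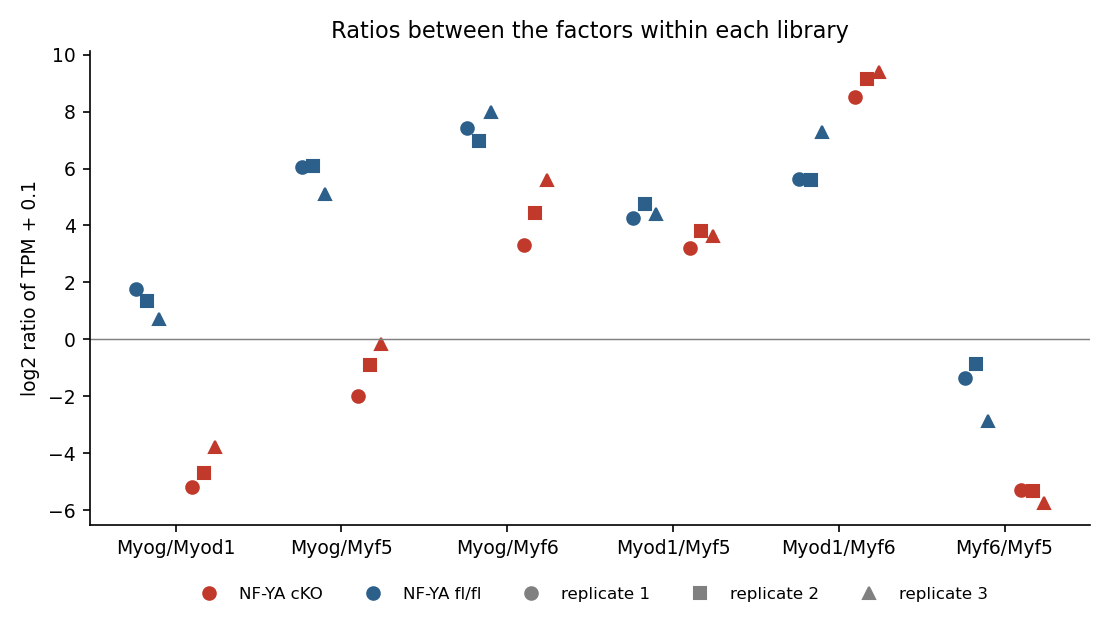
Log2 ratio of TPM (with 0.1 added to each level) for each pair of factors within each library, with NF-YA fl/fl in blue, NF-YA cKO in red and the replicate as the symbol. The genotypes do not overlap in any pair; they lie closest for Myod1/Myf5, where the mean log2 ratio is 4.47 in NF-YA fl/fl and 3.55 in NF-YA cKO.

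Summed over the 4 factors, TPM was 391, 399.7 and 424 in NF-YA cKO and 1083, 863 and 1692 in NF-YA fl/fl, so the mean was 1212 in NF-YA fl/fl and 405 in NF-YA cKO (n = 3 each, exact two-sided permutation p = 0.1, which no design of this size can go below). Of this sum, Myog made up 69.2% ± 7.90 in NF-YA fl/fl and 4.01% ± 1.97 in NF-YA cKO (SD, n = 3). Myod1 made up 29.1% ± 7.67 and 88.2% ± 1.67, respectively. The share of Myf5 was 1.31% ± 0.40 and 7.62% ± 1.62, with a lowest NF-YA cKO library at 6.41% and a highest NF-YA fl/fl library at 1.77%. Myf6 was under 1% throughout, at 0.408% ± 0.163 in NF-YA fl/fl and 0.152% ± 0.056 in NF-YA cKO. Most of the sum was Myog in NF-YA fl/fl and Myod1 in NF-YA cKO.

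Genes with profiles closest to each factor were found by the root mean square difference of log2(CPM + 0.5) over the 6 libraries, each gene centred on its own mean, among 9457 genes with at least 10 CPM on average. Because they were chosen on the same libraries, fold changes and calls like those of the factor follow from the choice. For Myog these were Myom3, Ppfia4, Mybpc1, Klhl31 and Mypn, with differences of 0.286 to 0.356. Myom3, Mybpc1 and Mypn encode proteins of the sarcomere, the contractile unit. Myom3 was at 3.67, 6.61 and 12.7 CPM in NF-YA cKO against 354, 295 and 376 CPM in the controls. The log2 fold changes of the 5 genes ran from -6.62 to -5.37, and all 5 were called lower. Without NF-YA fl/fl replicate 3, Myom3 and Mybpc1 stayed among the 5 closest.

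Myf6 was closest to Sema3c, Sort1, Rassf3, Trp53inp2 and Enah, at 0.107 to 0.184, each called lower with a log2 fold change between -2.22 and -1.95. Sema3c encodes a secreted guidance cue, Sort1 a sorting receptor and Enah a regulator of actin. The added 0.5 CPM dampens the change of Myf6, a gene of 0.616 and 4.30 CPM, more than theirs. Sema3c, Sort1, Rassf3 and Trp53inp2 stayed among the 5 closest without NF-YA fl/fl replicate 3. Myf6 would have ranked 253rd among 9454 genes for Myog, at 1.87.

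Myod1 was closest to Rmrp, Slc7a5, Lrrc17, Rnaset2a and Stac2, at 0.136 to 0.172, and none of these was called. Rmrp, the RNA of a ribonuclease complex, had 1350.0 and 1010.0 CPM in control replicates 1 and 2, 3190.0 CPM in replicate 3, and between 1560.0 and 1890.0 CPM in NF-YA cKO. The likeness rested on NF-YA fl/fl replicate 3, since without it none of the 5 stayed among the 5 closest, and their ranks were 250 to 1072. Myf5 was closest to Cxadr, Slc7a3, Ngfr, Grik3 and Pim3, at 0.240 to 0.304, again with none called. Cxadr encodes a cell adhesion receptor and Slc7a3, like Slc7a5, an amino acid transporter. Without NF-YA fl/fl replicate 3, Slc7a3 alone stayed among the 5 closest, and the others had ranks of 6 to 36. Myod1 would have ranked 48th of 9454 for Myf5, at 0.503.

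**Figure D4:**
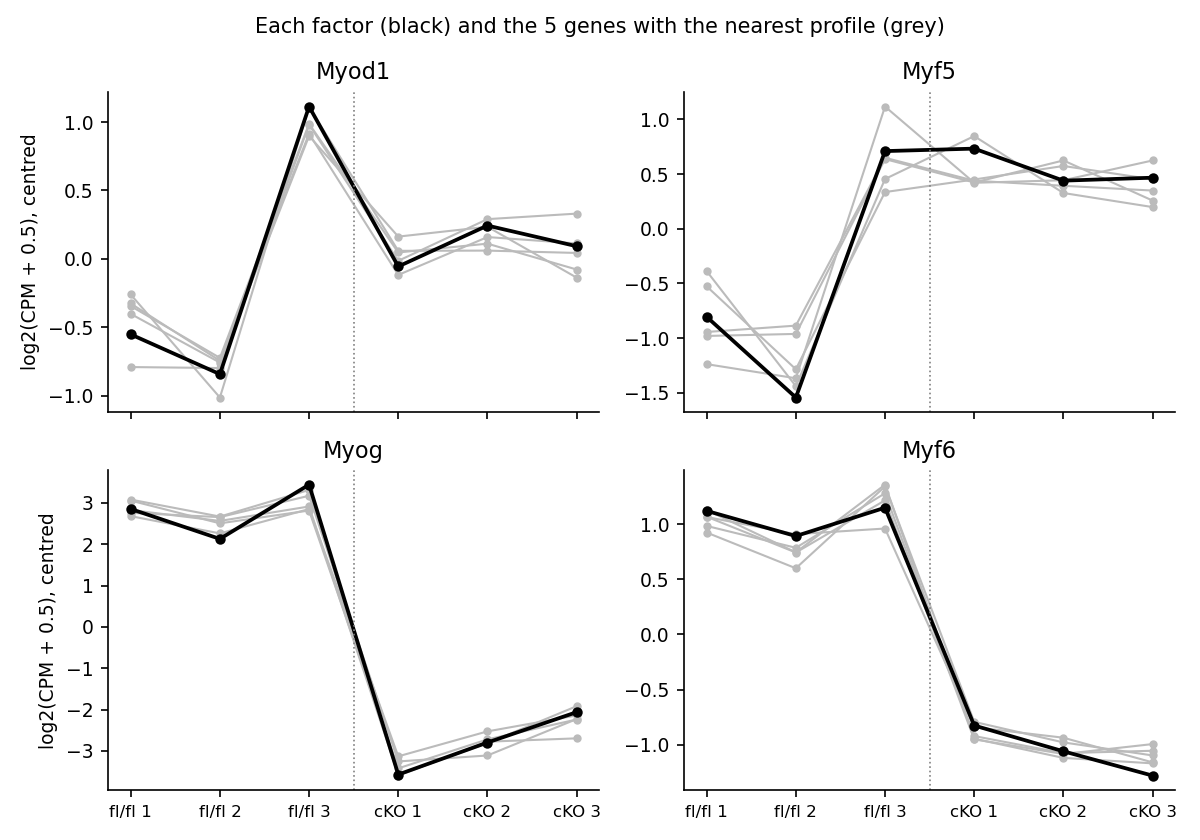
Log2(CPM + 0.5) of each factor (black) and its 5 closest genes (grey) in the 6 libraries, each gene centred on its own mean over the libraries; lines only join the values of a gene, and the dotted line parts the genotypes. Myog and Myf6 and their closest genes are lower in all NF-YA cKO libraries, while for Myod1 and Myf5 the highest or near-highest value is NF-YA fl/fl replicate 3.

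The nearest genes on each side were looked at by position, 3 protein-coding genes either way. At the Myog locus 4 of the 6 were called lower, against 7.67% of all tested genes. Ppfia4, which encodes a scaffold protein of the liprin family and lies 4.23 kb beyond Myog, was at 2.26 CPM in NF-YA cKO against 140.0 CPM in the controls, log2 fold change -5.94 (standard error 0.38, edgeR FDR = 0.000155). Mybph, a myosin-binding protein, showed a log2 fold change of -7.35 (standard error 0.36, edgeR FDR = 6.16e-05) and Adora1, an adenosine receptor, -7.02 (standard error 0.57, edgeR FDR = 0.000369). Mybph and Adora1 overlap each other in the annotation, so reads in the shared part may have been assigned to either. Tmem183a, beyond Ppfia4, had 85.3 and 75.9 CPM and was not called. 4933406M09Rik was called lower at 0.408 and 2.04 CPM, and Chil1 was not called.

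Of the 6 genes around Myod1, Otog (log2 fold change -2.08, standard error 0.27, edgeR FDR = 0.0019) and Abcc8 (-1.76, standard error 0.30, edgeR FDR = 0.00464) were called lower. Kcnc1, a potassium channel gene 17.4 kb away, showed a log2 fold change of -2.35 but an edgeR FDR of 0.0182. Sergef and Tph1 did not pass, and Ush1c was under the filter. Around Myf5 and Myf6 no other gene was called: Ptprq, a phosphatase receptor gene, had 4.47 and 1.70 CPM (log2 fold change 1.39, edgeR FDR = 0.0892) and Lin7a 1.19 and 3.13 CPM (-1.40, edgeR FDR = 0.0428), Acss3 and Ppp1r12a did not pass, and Ppfia2 and Otogl were under the filter. In all, 6 of 15 tested neighbours were called lower and 0 higher by edgeR, with 9 lower and 2 higher at an unadjusted p under 0.05. Over all tested genes, 7.67% were called lower and 4.65% higher. Mybph, among the neighbours called lower, is also on the list of activated muscle genes given below. Without NF-YA fl/fl replicate 3, Kcnc1 was also called lower (-1.43, edgeR FDR = 0.00383) and Ptprq, beside Myf6, was called higher (2.26, edgeR FDR = 0.0034).

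Upstream sequence was available from RefSeq (GRCm38.p6) for Myog and Myf5. The stretch before Myog is shown since Myog changed most, with motif matches on either strand in capitals, over chr1:134289754-134289988 (plus strand), which ends where the GENCODE transcript begins.
Myog: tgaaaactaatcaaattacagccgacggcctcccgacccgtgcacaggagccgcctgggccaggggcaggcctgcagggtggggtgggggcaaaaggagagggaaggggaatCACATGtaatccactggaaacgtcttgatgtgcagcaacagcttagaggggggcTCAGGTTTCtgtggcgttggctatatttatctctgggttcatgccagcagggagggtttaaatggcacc
The motifs searched were the E box, CCAAT, the TATA box, MEF3 and MEF2. Within the 250 bases before the RefSeq start of Myog there were 2 E boxes, CACATG beginning at -138 and CAGTTG at -12, the second of which lies beyond the stretch printed. An E box was in 66.2% of 32851 upstream windows of the same length. The MEF3 sequence TCAGGTTTC was present once at -84, and 0.387% of windows hold it. CCAAT, found in 33.8% of windows, the TATA box (TATAAA), in 12.4%, and the MEF2 motif, in 2.92%, had no match in these letters. Only matches to a full pattern within the window were counted. A near match, or a site elsewhere at the locus, would therefore not show. The study describes the Myog promoter as lacking CCAAT, and reports NF-YA binding at a distal Myog enhancer that was reduced in NF-YA cKO. In the window before Myf5 none of the 5 motifs had a match. None of these matches overlap each other.

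Tcf3, Tcf4 and Tcf12, the genes of the E proteins with which the factors dimerize, were all expressed, and 0 of the 3 were called by edgeR, also without NF-YA fl/fl replicate 3. Among all tested genes 4.65% were called higher and 7.67% lower. At an unadjusted p under 0.05, 1 of the 3 was higher and 1 lower. Tcf12 averaged 211 CPM in NF-YA cKO against 239 CPM in the controls. Tcf4 was at 133 and 244 CPM, with a fold change (log2) of -0.88 (standard error 0.12, edgeR FDR = 0.00208) that fell short of the required size, and Tcf3 was at 103 and 73.5 CPM (0.49, edgeR FDR = 0.0164).

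Among 13 tested of 14 inhibitors of myogenic bHLH factors, 1 was called higher and 2 lower, against 4.65% and 7.67% of all tested genes. Their median log2 fold change was 0.05, beside -0.02 over all tested genes. With NF-YA fl/fl replicate 3 left out, the sign of that median turned, at -0.18 beside 0.01 over all genes. Id2, an Id protein that binds E proteins and keeps them from DNA, was at 128 CPM in NF-YA cKO against 56.6 CPM in the controls, log2 fold change 1.18 (standard error 0.14, edgeR FDR = 0.00152). Its relatives Id1 (124 and 69.5 CPM, log2 fold change 0.83, edgeR FDR = 0.0206) and Id3 (299 and 161 CPM, 0.89, edgeR FDR = 0.03) were not called, but both were called higher without NF-YA fl/fl replicate 3, at log2 fold changes of 1.01 and 1.17. Mdfi, which binds myogenic factors and holds them in the cytoplasm, fell (log2 fold change -1.78, edgeR FDR = 0.00703), as did Zeb1, a repressor that competes for E boxes (-1.13, edgeR FDR = 0.000563).

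Of 12 upstream activators and partners, 3 were called lower and 0 higher, against 7.67% and 4.65% of all tested genes. All 3 were Mef2 genes, whose products act beside myogenic factors: Mef2c (log2 fold change -5.05, edgeR FDR = 5.06e-05), Mef2a (-1.82, edgeR FDR = 0.00119) and Mef2d (-1.59, edgeR FDR = 0.00131). Pax7, an activator of Myf5, showed a log2 fold change of 0.94 (standard error 0.17, edgeR FDR = 0.00624), short of the required size. Without NF-YA fl/fl replicate 3 the count was 3 higher and 3 lower, since Pax7 (1.08), Pax3 (1.74) and Eya1 (1.77) were then called higher, in the same fit in which Myf5 was.

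Of 14 chromatin cofactors, 1 was called higher and 0 lower, against 4.65% and 7.67% of all tested genes. At an unadjusted edgeR p under 0.05, 6 were higher and 4 lower. The gene called was Ezh2, the methyltransferase of Polycomb repressive complex 2, at 69.9 and 33.5 CPM (log2 fold change 1.06, edgeR FDR = 0.000662). Smarca4, the ATPase of the chromatin remodeller that myogenic factors recruit, was at 347 and 299 CPM (0.22, edgeR FDR = 0.209), and Crebbp, an acetyltransferase, at 137 and 201 CPM (-0.55, edgeR FDR = 0.0104).

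Genes that myogenic factors are known to activate were mostly lower. Of 25 such genes, 22 were called lower, against 7.67% of all tested genes, and the count was also 22 without NF-YA fl/fl replicate 3. Their median log2 fold change was -5.97, beside -0.02 over all tested genes. The largest decreases were in Myh3 (-8.09, edgeR FDR = 0.00019), Actc1 (-8.06, edgeR FDR = 9.99e-05), Myl1 (-7.91, edgeR FDR = 5.72e-05) and Tnnc2 (-7.65, edgeR FDR = 0.000131), all parts of the contractile apparatus. Mymk and Mymx, which drive the fusion of myoblasts, were at 2.64 and 0.46 CPM in NF-YA cKO against 265 and 29.4 CPM in the controls. The 3 genes not called were Chrna1 (621 and 837 CPM, log2 fold change -0.43, edgeR FDR = 0.154), Chrnb1 (-0.77, edgeR FDR = 0.0649) and Rapsn (-0.58, edgeR FDR = 0.151), of the acetylcholine receptor and its clustering. Other genes of the same kind on the list fell, namely the subunits Chrng (22.6 and 237 CPM, -3.39, edgeR FDR = 0.000161) and Chrnd (-1.55, edgeR FDR = 0.00186) and the clustering kinase Musk (82.3 and 221 CPM, -1.43, edgeR FDR = 0.00155).

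Of 10 genes tied to cell cycle exit, 3 were called lower and 1 higher, against 7.67% and 4.65% of all tested genes. Their median log2 fold change was -0.44, beside -0.02 over all tested genes. Cdkn1c and Cdkn1a, which encode inhibitors of cyclin-dependent kinases, had log2 fold changes of -3.58 (edgeR FDR = 0.000422) and -2.55 (edgeR FDR = 0.00465), and Rb1, the retinoblastoma gene, -1.79 (edgeR FDR = 0.00101). Ccnd1, cyclin D1, was at 573 and 261 CPM (1.14, edgeR FDR = 0.00937). Its partner kinase gene Cdk4 was at 306 and 177 CPM (0.79, edgeR FDR = 0.00169) and was not called. When NF-YA fl/fl replicate 3 was left out, the edgeR FDR of Ccnd1 was 0.0117 and Ccnd1 was no longer called. Ccnd3 had a log2 fold change of -1.56 with all libraries and just missed the FDR threshold (edgeR FDR = 0.0102). With that library left out, Ccnd3 was at -1.07 and was called lower. Among 10 tested SC and myoblast markers, Des (-2.09), Spry1 (-1.80) and Cdh15 (-1.78) were called lower, with Cdh15 and Des also on the list of activated genes. Without that replicate Fgfr4 was called lower and Pax7 higher as well.

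**Figure D5:**
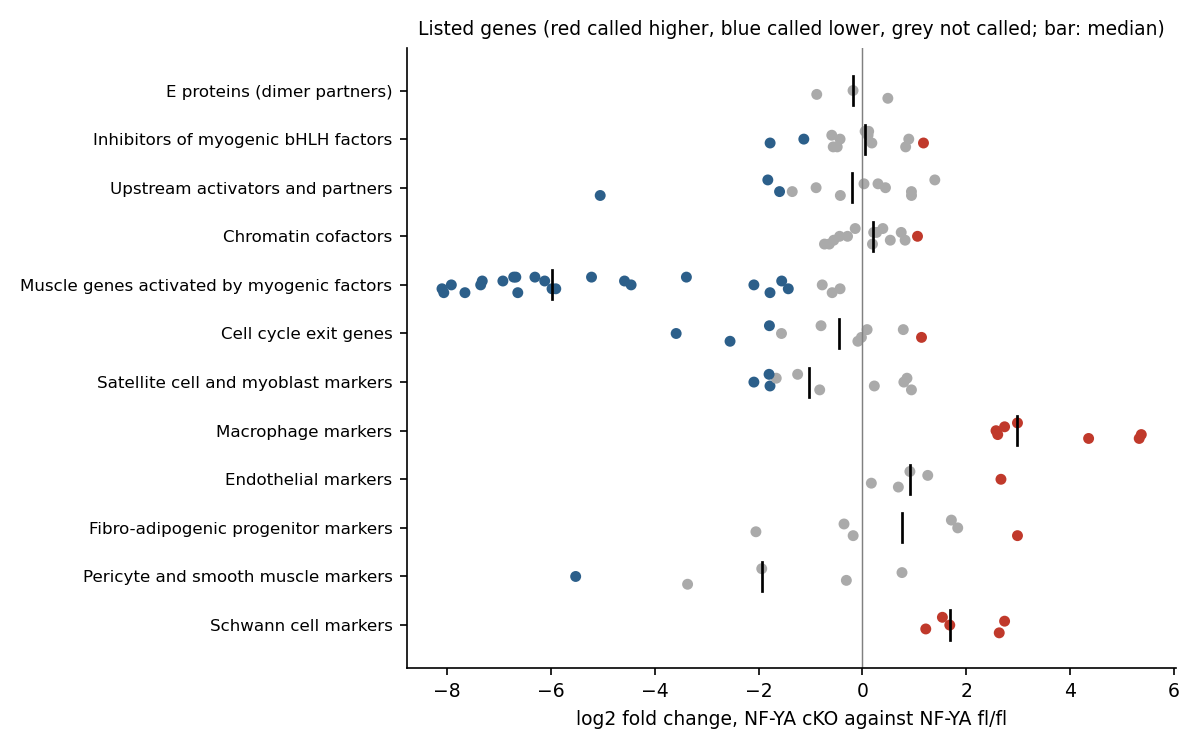
Log2 fold change of the tested genes of each list, NF-YA cKO against NF-YA fl/fl, with genes called higher in red, called lower in blue and not called in grey, and the list's median as a bar. Genes activated by myogenic factors lie lowest, with a median of -5.97, and macrophage and Schwann cell markers lie above 0.

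Markers of other cells moved with genotype as well. All 7 tested of 8 macrophage markers were called higher in NF-YA cKO, against 4.65% of all tested genes. Among them were Adgre1, Lyz2, Ptprc and Itgam. Their summed level was 125 to 242 CPM in NF-YA cKO and 5.29 to 11.3 CPM in the controls, Lyz2 alone averaged 165 and 4.08 CPM, and Ptprc was at 0 counts in NF-YA fl/fl replicate 1. All 5 Schwann cell markers were called higher, again against 4.65% of all tested genes. Among them were Mbp (log2 fold change 2.74), Sox10 (1.68) and Cdh19 (1.54). Their list summed to 39.8 to 42.0 CPM in NF-YA cKO and 9.66 to 14.5 CPM in the controls. Of 5 tested endothelial markers of 6, Kdr was called higher and Cdh5 (2.74 and 2.43 CPM) and Pecam1 (2.1 and 1.3 CPM) were not, with sums of 13.2 to 18.1 and 4.17 to 8.15 CPM.

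Fibro-adipogenic and pericyte markers differed among the controls. The 6 fibro-adipogenic markers, of which Lum was called higher and the abundant Pdgfra (88.5 and 100 CPM) and Dcn (72.4 and 22.1 CPM) were not called, summed to 167 to 200 CPM in NF-YA cKO, to 182 and 208 CPM in NF-YA fl/fl replicates 1 and 2 and to 35.2 CPM in replicate 3, the library with the highest Myod1 and the highest control Myf5. Pericyte and smooth muscle markers, 5 of 6 tested, with Abcc9 called lower and Cspg4 (134 and 167 CPM) and Notch3 (17.1 and 65.4 CPM) not called, summed to 140.0 to 193 CPM in NF-YA cKO, and to 361, 426 and 196 CPM in control replicates 1, 2 and 3. Abcc9 itself was at 78.9, 57.7 and 71.25 CPM in these controls, so it did not follow the low sum of replicate 3. With replicate 3 left out, Dcn was called higher and Ly6a lower among the former, and Rgs5 and Notch3 lower among the latter. None of these lists was at 0 in either genotype. Their part in the levels of the 4 factors was not tested.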

How the data were processed

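RNA was measured in 6 libraries of mouse SCs, 3 per genotype, grouped by the genotype in the labels. The authors aligned paired reads of 75 nt from stranded total RNA libraries to the mm10 transcriptome with Bowtie2 and quantified them by RSEM. Expected counts as deposited are neither normalized nor filtered, the TPM values deposited beside them are scaled to effective length, and the deposited percent per transcript is its part of the gene's TPM.

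Here expected counts were rounded to whole numbers, a gene needed over 10 of them in 2 or more libraries, and genotypes were compared over all 17348 genes that met this with edgeR 4.0.16 (TMM, quasi-likelihood test, genotype only, Benjamini-Hochberg adjusted FDR) in R 4.3.3. CPM are on the same library sizes, where 3 counts are 0.0705 to 0.115 CPM. Depth limits mainly Myf6, and the spread between 3 libraries limits the rest. A standard error is the size of the log2 fold change divided by the square root of F. Plots used matplotlib. Alternatives were DESeq2 1.42.0, its size factors, other filters, limma 3.58.1 on log2 TPM, unrounded counts, glmTreat, a replicate block and leaving out each library. The members and lists were chosen with earlier results of these data known. Named were all members, the 5 closest genes of each, 3 neighbours per side, and in each list up to 4 called genes, largest change first, and 2 others with the highest CPM. Tcf3, Mymk, Mymx, Chrng, Chrnd, Musk, Rapsn and genes named for a call without NF-YA fl/fl replicate 3 were chosen after their values were seen. Mymk and Mymx were matched through older symbols. Leaving that library out of list counts, neighbours and closest genes was also chosen after seeing the data. A gene that the rule names among the upstream activators and another among the Schwann cell markers are not reported here.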

Additional observations from a re-analysis of the deposited data

How the results depend on the processing

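Myog and Myf6 were called lower under all 15 alternatives each, with log2 fold changes of -6.11 to -5.25 and -3.05 to -1.77 (FDR up to 0.00727 and 0.00736). Myf5 was called only without NF-YA fl/fl replicate 3, at 1.71 (FDR = 0.00145); leaving out each library in turn gave 0.40 to 1.71, and its FDR over all alternatives was 0.00145 to 1.0. The log2 fold change of Myod1 turned positive with limma on log2(TPM + 1), at 0.106, with limma on log2(TPM + 0.1), at 0.107, with the replicate block, at 0.20, and without NF-YA fl/fl replicate 3, at 0.78; leaving out each library gave -0.42 to 0.78, and the FDR over all alternatives was 0.00305 to 1.0. The cause was not tested. Libraries with the same replicate number did not deviate together (correlations of 0.209, -0.103 and 0.0512 for numbers 1, 2 and 3, and not every library was closest to its own number). With the replicate block 625 genes were called higher and 947 lower, and the block changed no call of the 4 factors (Myf5 1.12, FDR = 0.117). Counts over all genes, 806 higher and 1331 lower, were 231 and 704 with limma on log2(TPM + 1), 361 higher with limma on log2(TPM + 0.1), 97 and 510 with glmTreat, and 177 to 890 and 523 to 1684 when a library was left out. DESeq2, the study's tool, gave the highest counts, 986 higher and 1804 lower, and edgeR without a filter gave 934 and 1419. The ratios kept their sign under every alternative run, but those with Myf6, the lowest factor, moved in size with the added constant: with log2(TPM + 1) Myog/Myf6 was -3.87, Myod1/Myf6 1.88 and Myf6/Myf5 -2.75, against -3.01, 2.83 and -3.75 with 0.1. They also moved without NF-YA fl/fl replicate 3, where Myog/Myf6 was -2.745, Myod1/Myf6 3.38 and Myf6/Myf5 -4.34. For all ratios, with a library left out the smallest possible p was 0.2.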
